A study of Sus scrofa with 75 samples.

Results

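Some miRNAs are made almost wholly in one tissue, such as pancreatic islets, liver, muscle or epithelium. Such miRNAs, of 10 name stems, were looked for in the blood cells of young pigs. The members were chosen by name (miR-375, miR-122, miR-1, miR-133a, miR-206, miR-200b, miR-200c, miR-141, miR-205 and miR-184) as a set whose reads earlier results of these data had placed in scattered libraries. The names matched 11 of the 457 mature miRNAs in the count table, and miR-200c had no entry. A member was called found in a library with more than 3 counts, so where it was found is given as a description with no test.

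Peripheral blood mononuclear cells (PBMCs), the lymphocytes and monocytes that a density gradient separates from blood, came from 13 synthetic large white pigs. The 8 control pigs were kept in ordinary farrowing crates, and the 5 topsoil pigs received fresh topsoil each day from day 4 to day 20 of life. All pigs moved at day 20 to a nursery without soil, and each was bled on day 11, day 20 and day 56, which gave 39 small RNA libraries of 1 pig and 1 age. The treatment and age are those in the column names, which match the sample descriptions. Only 6 of the 39 libraries have that treatment and age in their sample characteristics as well.

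A library held between 1634831 and 13494765 counts, of which miR-486, a miRNA abundant in red blood cells, took between 11.8% and 95.5%. The counts of all other miRNAs, between 389906 and 6343113 per library, set how well a rare miRNA could be seen. Levels are therefore given as counts and as CPM, here the counts per 1000000 counts of all miRNAs except miR-486. The leukocyte miRNAs miR-142-5p, miR-150 and miR-223 were above 3 counts in all 39 libraries, as were the erythroid miR-486 and miR-451. Above that limit in fewer libraries were miR-142-3p (38), the erythroid miR-144 (35) and, of platelets and endothelium, miR-126-5p (32) and miR-126-3p (23). No pair of libraries agreed within counting noise.

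A miRNA is a short RNA that guides a silencing complex to messenger RNAs, mainly through its seed, bases 2 to 8 from the 5′ end. Tissue-restricted miRNAs are used as blood markers of injury, since dying cells release them. miR-375 is abundant in islet, neuroendocrine and gut epithelial cells. miR-122 dominates the miRNAs of hepatocytes. miR-1, miR-133a and miR-206 are made in heart or skeletal muscle. The miR-200 family with miR-141, as well as miR-205, marks epithelial cells, and miR-184 is high in the cornea and other epithelia.

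Mature sequences can show which members could share targets and which could share reads. RefSeq entries for Sscrofa11.1, the build used by the authors, matched 7 of the 11 members. Those without a match were miR-375, miR-141, miR-200b and miR-122-3p, so their sequences and positions were not compared. The sequences of 4 members that had reads, of the muscle pair that shared a seed, and of miR-133b, a close relative of miR-133a-3p, are given with the seed in capitals.
miR-184: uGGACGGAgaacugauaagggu
miR-122-5p: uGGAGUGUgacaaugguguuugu
miR-133a-3p: uUGGUCCCcuucaaccagcug
miR-205: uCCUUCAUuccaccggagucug
miR-1: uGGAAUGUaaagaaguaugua
miR-206: uGGAAUGUaaggaaguguguga
miR-133b: uUUGGUCCccuucaaccagcuau
miR-1 and miR-206 had the same seed and were identical at 18 of 21 bases, with the substitutions A11G, A17G and A21G, counted from the 5′ end of miR-1. The miR-133b entry starts 1 base earlier than miR-133a-3p. Aligned with that shift, the sequences were identical at 20 of 21 bases and differed by G21A, counted from the 5′ end of miR-133a-3p. Reads that lack the first base of miR-133b and end before that difference cannot be told apart.

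In Sscrofa11.1, miR-184 lies on the plus strand at chr7:48345068-48345089, within the long non-coding RNA gene LOC106507693 on the same strand. miR-122-5p lies on the minus strand at chr1:162329824-162329846, in no other annotated gene. The sequence of miR-133a-3p is annotated at chr17:61904841-61904861 on the plus strand and at chr6:106998910-106998930 on the minus strand. The second copy lies within MIB1, which is on the opposite strand, and within the lncRNA LOC110261182. miR-205 lies on the minus strand at chr9:133517119-133517140. It lies within LOC102159171, a lncRNA gene on the opposite strand. The MIR1 gene is 10637 bases from MIR133A-1 on chromosome 17, and MIR206 is 3765 bases from MIR133B on chromosome 7. Members of both muscle pairs therefore lie next to each other on the same strand.

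The set was rare and uneven in PBMCs. All 11 members together had 1563 counts, or 17.3 CPM. miR-375 held 86.0% of these counts and miR-184 held 9.60%. A read was seen for 7 members, and more than 3 counts in some library for 5 (miR-375, miR-184, miR-122-5p, miR-133a-3p and miR-141). The other 4 members (miR-1, miR-206, miR-122-3p and miR-133a-5p) had 0 counts in all 39 libraries, which allows up to 0.0332 CPM over the series. A limit for 0 counts is set at 3 counts of the total, and intervals given with levels are exact binomial intervals at 95%. Both cover counting error only.

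**Figure D1:**
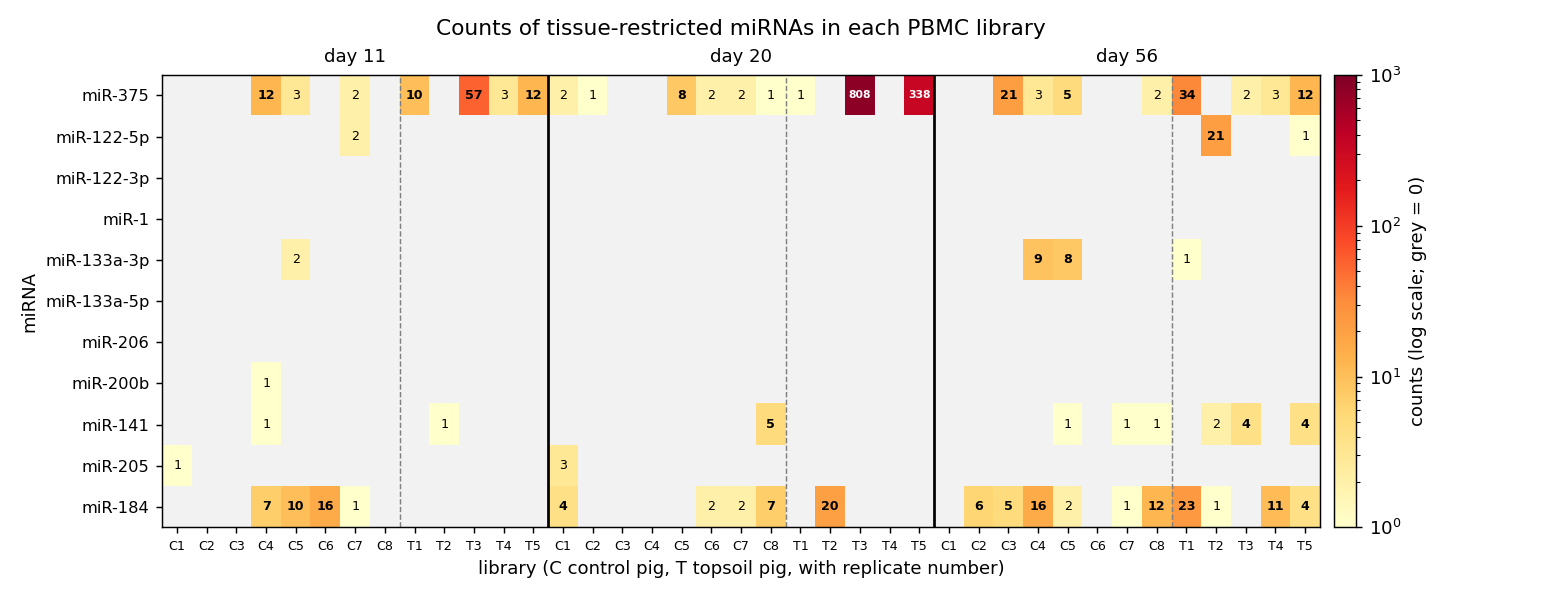
Counts of the 11 tissue-restricted miRNAs (rows) in the 39 PBMC libraries (columns, by day, with control pigs before topsoil pigs in each day). Colour gives the count on a log scale, grey is 0, and counts above 3 are in bold. miR-375 reached 808 and 338 counts in 2 topsoil libraries at day 20, and no other count was above 57.

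Of the 429 pairs of member and library, 30 had more than 3 counts. No member was found in 17 libraries, 1 member in 15, 2 members in 6 and 3 members in 1, topsoil replicate 5 at day 56. The limit fell among small counts: 4 pairs of miR-141 and miR-184 lay just inside it at 4 counts, and 5 pairs of miR-205 and miR-375 lay just outside at 3 counts. In control pigs, 4 of 88 pairs were found at day 11, 4 of 88 at day 20 and 8 of 88 at day 56. In topsoil pigs, 3 of 55, 3 of 55 and 8 of 55 pairs were found at the same ages. The larger number at day 56 was seen in both treatments.

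Depth moved with this count. Over both treatments, 7, 7 and 16 of 143 pairs were found at days 11, 20 and 56, while the median count of other miRNAs was 1109440, 1645240 and 3685800. The median share of miR-486 at those ages was 90.7%, 85.8% and 37.9%. With the limit set at 1 CPM instead of 3 counts, 14, 8 and 13 pairs were found. That limit also moves with depth, since in a library of about 1000000 other counts a single read passes it, as miR-205 in control replicate 1 and miR-184 in control replicate 7 did at day 11. The number of members found had a Spearman correlation of 0.58 with the counts of other miRNAs over the 39 libraries. It was 0.50, 0.48 and 0.43 within days 11, 20 and 56 (13 libraries each). Libraries of 1 pig at different ages are not independent, and the part of depth in the larger number at day 56 was not tested.

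**Figure D2:**
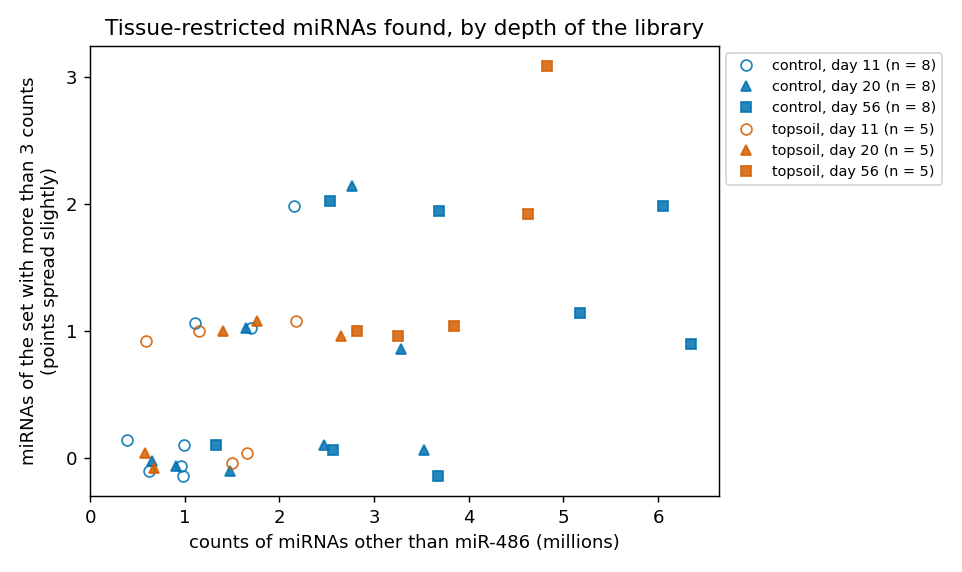
Number of the tissue-restricted miRNAs with more than 3 counts in a library (vertical axis, points spread slightly) against its counts of miRNAs other than miR-486 (horizontal axis), with colour for treatment and symbol for age. The library with 3 members found, topsoil at day 56, is among the deepest, and libraries with no member found reach into the range of those with 2.

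miR-375 was the member with the most counts, most of them in a few libraries. In the control pigs (replicates 1 to 8), it had 0, 0, 0, 12, 3, 0, 2 and 0 counts at day 11, and 2, 1, 0, 0, 8, 2, 2 and 1 counts at day 20. At day 56, the same pigs had 0, 0, 21, 3, 5, 0, 0 and 2 counts. The control libraries thus held few reads at every age, with at most 1 or 2 pigs over 3 counts. In the topsoil pigs (replicates 1 to 5), it had 10, 0, 57, 3 and 12 counts at day 11, then 1, 0, 808, 0 and 338 counts at day 20. At day 56, these pigs had 34, 0, 2, 3 and 12 counts. The topsoil and control ranges overlapped at all 3 ages, and replicate 2 of the topsoil pigs never had a miR-375 read.

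Topsoil replicate 3 at day 20 alone held 60.1% of all miR-375 counts, and with topsoil replicate 5 at that age 85.3%. The 2 libraries had 577 CPM (95% interval 538 to 618) and 192 CPM (172 to 213). The next highest level was 49.7 CPM (37.6 to 64.4), in topsoil replicate 3 at day 11. The highest control level was 5.70 CPM (3.53 to 8.71), in replicate 3 at day 56. Replicate 3 thus had the highest miR-375 at both ages during exposure and 2 counts at day 56.

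The 2 libraries were not unusual in depth, with 1401397 and 1762319 counts of other miRNAs, where topsoil libraries at day 20 ranged from 579876 to 2653312. Their miR-486 shares of 89.2% and 85.8% lay within the range of that group, 74.0% to 95.5%. Replicate 3 at day 20 had the lowest RNA quality index (RQI) of all 39 libraries, and replicate 5 was near the middle. With RQI as a term, the day 20 log2 fold change of topsoil over control was 6.40 (adjusted p = 0.0303, edgeR), against 7.59 without it. The part of RNA quality in the level of that library was not tested.

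Among the 209 miRNAs tested, miR-375 had the largest share of its counts in 1 library, against a median of 9.18%. The second was miR-345-5p with 60.0% in control replicate 1 at day 56, and the third was miR-574-3p with 30.1% in the same control library. By total count miR-375 stood lower, with 139 of the tested miRNAs above it. miR-184 ranked 22nd, with 15.3% of its counts in its highest library. These shares were selected on the same libraries that chose the members and are given without a test.

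**Figure D3:**
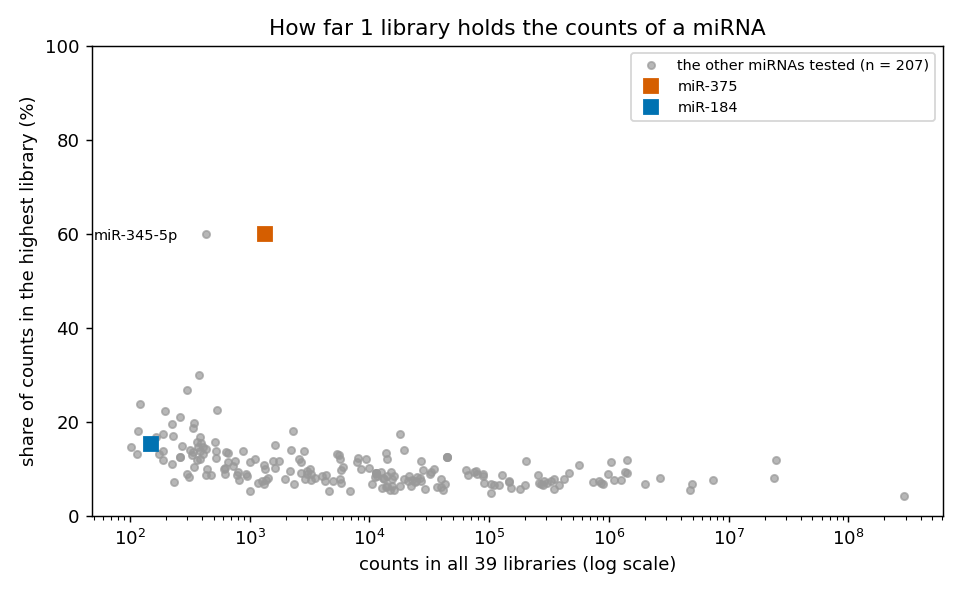
Share of the counts of each of 209 miRNAs held by its highest library (vertical axis, %) against its counts in all 39 libraries (horizontal axis, log scale). miR-375 and miR-345-5p lie near 60%, while miR-184 (15.3%) lies among other miRNAs of low counts.

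The ages of 1 pig often held different miR-375 counts. Over 3 counts were seen at some age in 6 of the 13 pigs, 3 control and 3 topsoil. They were seen at 2 or more ages in 4 pigs and at all 3 ages in 1 pig, topsoil replicate 5 (12, 338 and 12 counts). Topsoil replicate 1 had 10, 1 and 34 counts, with its lowest value at the age where replicates 3 and 5 had their highest.

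The design asks whether topsoil changed these levels at each age. miR-375 and miR-184 were the 2 members with enough reads to be tested (over 2 counts on average, and at least 1 in 17 or more libraries). Each day was fitted over all 209 miRNAs by edgeR's quasi-likelihood method, and p-values were adjusted by Benjamini-Hochberg with a limit of 0.10. Fold changes are topsoil over control on the log2 scale, with a standard error (SE). In bulk PBMCs, fewer cells of a type and less RNA per cell cannot be told apart. At day 11, miR-375 was at 14.8 ± 20.6 CPM in topsoil pigs (SD, n = 5) and 1.17 ± 1.97 in control pigs (SD, n = 8). The log2 fold change was 4.15 (SE 1.42) and did not pass (edgeR adjusted p = 0.776). It was 2.28 without topsoil replicate 3, which had 57 of the 82 topsoil counts, and 2.45 with scaling by total counts. At that age 0% of the tested miRNAs were called (0 of 209, also 0 by DESeq2), and 6 had an unadjusted p below 0.05.

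At day 20, miR-375 was higher in topsoil pigs, with 154 ± 250 CPM against 0.986 ± 1.59 in control pigs. The log2 fold change was 7.59 (SE 1.42, edgeR adjusted p = 0.00598). miR-375 was the only miRNA called at this age, which is 0.478% of those tested, and DESeq2 called 3. Of the 209 miRNAs, 26 had an unadjusted p below 0.05 by edgeR. The call of miR-375 was known from earlier results and is not independent support. The difference was carried by 2 of 5 topsoil pigs. The other 3 had 1, 0 and 0 counts, within the control range of 0 to 8. Without topsoil replicate 3, the log2 fold change was 5.85 and the call was lost (edgeR adjusted p = 0.105). With the treatment and age of the sample characteristics in place of the column names, the sign turned and the call was lost (log2 fold change -2.05, edgeR adjusted p = 0.838). The characteristics place 9 control libraries at day 20 and 7 at day 56, which does not match 8 control pigs each bled at every age. The column names place 8 at each age. An exact two-sided permutation test over pigs of the mean log2(CPM + 1), chosen after seeing the data and run for both miRNAs at 3 ages (6 tests), gave a difference of 2.87 with an unadjusted p = 0.179. At day 11 the exact permutation test gave a difference of 2.08 with an unadjusted p = 0.0668.

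At day 56, well after the topsoil had ended, the miR-375 ranges again overlapped, with 2.26 ± 2.98 CPM in topsoil pigs and 1.07 ± 1.99 in control pigs. The log2 fold change was 1.17 (SE 1.20, edgeR adjusted p = 0.862). It was 0.11 without topsoil replicate 1 and 2.54 without control replicate 3. None of the 209 miRNAs was called (0%, also 0 by DESeq2), and 6 had an unadjusted p below 0.05.

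**Figure D4:**
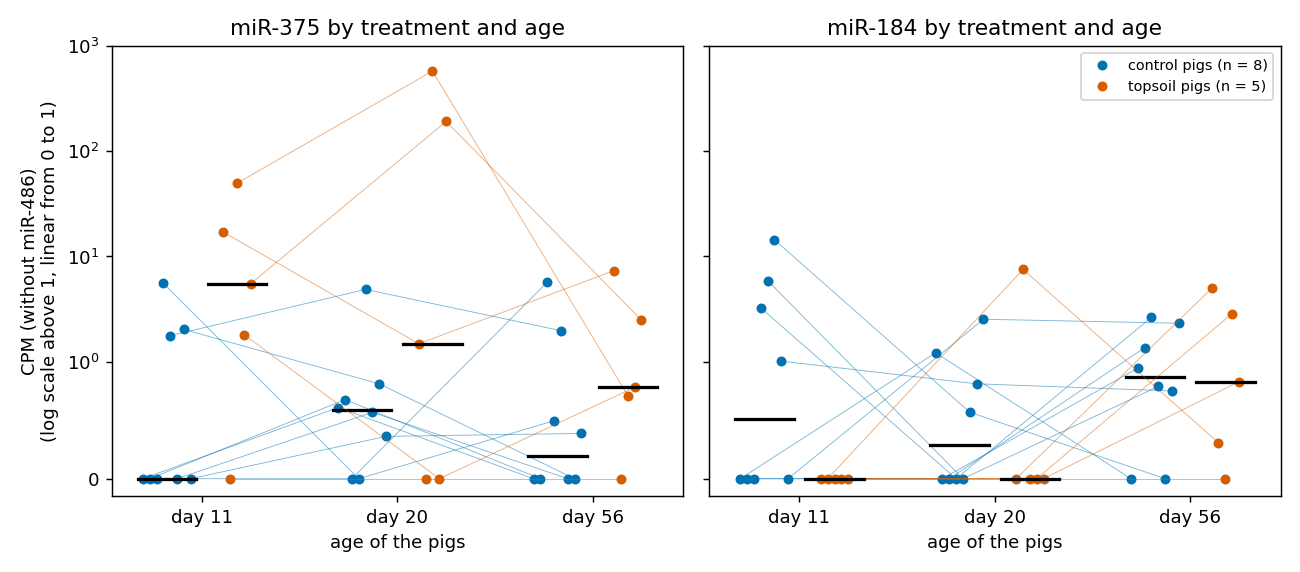
Levels of miR-375 (left) and miR-184 (right) in each library, in CPM (without miR-486), on an axis that is linear from 0 to 1 and logarithmic above. Points are pigs (8 control, 5 topsoil), thin lines join the ages of a pig and black bars are group medians. For miR-375, 2 topsoil pigs at day 20 stand at 577 and 192 and the others lie below 10 at that age. For miR-184, all 5 topsoil pigs were at 0 at day 11.

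miR-184 was found in more libraries than miR-375 (13 against 11) but never rose above 23 counts. The order was the other way with at least 1 count (19 against 24) and with more than 10 counts (6 against 8). In the control pigs (replicates 1 to 8), it had 0, 0, 0, 7, 10, 16, 1 and 0 counts at day 11, then 4, 0, 0, 0, 0, 2, 2 and 7 at day 20. At day 56, they had 0, 6, 5, 16, 2, 0, 1 and 12 counts. In the topsoil pigs, it had 0 counts in all 5 libraries at day 11, then 0, 20, 0, 0 and 0 at day 20, and 23, 1, 0, 11 and 4 at day 56. The control and topsoil ranges overlapped at all ages, since 4 control pigs also had no read at day 11.

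The 13 libraries with over 3 counts of miR-184 came from 11 of the 13 pigs, 7 control and 4 topsoil, and only 2 pigs were above that limit at 2 ages. No pig was above it at all 3 ages. Its highest level was 14.4 CPM (95% interval 8.24 to 23.4), in control replicate 6 at day 11, a pig with 2 counts at day 20 and 0 at day 56.

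For miR-184 at day 11, the 34 control counts over 8 pigs gave 3.82 CPM. The topsoil group at 0 counts allows up to 0.425 CPM over its 5 libraries, and the pooled control level was 9.0 times that limit. Without control replicate 6, the remaining 18 counts gave 2.31 CPM, which is 5.4 times the limit. These ratios leave out the counting error of the control reads and the spread between pigs, so they are not lower bounds. The difference did not pass (edgeR adjusted p = 0.776), and the exact permutation test over pigs gave p = 0.196. At day 20 the log2 fold change was 0.96 (SE 1.19, edgeR adjusted p = 0.789) and rested on topsoil replicate 2, the only topsoil library with a read. At day 56 it was 0.69 (SE 1.02, edgeR adjusted p = 0.939). Without topsoil replicate 1 it was -0.09.

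The treatment by age interaction asks whether the treatments differed in their course. It was tested over the 39 libraries in a model with age, RQI and a block for each pig. Neither miRNA passed, with an edgeR adjusted p of 0.462 for miR-184 and 0.846 for miR-375. Of the 209 miRNAs, 0% were called (0 also by DESeq2), and 22 had an unadjusted p below 0.05.

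Age itself was compared in the same model over both treatments. From day 11 to day 20, miR-375 had a log2 fold change of 0.79 (SE 1.00) and miR-184 of -0.20 (SE 1.48). The edgeR adjusted p-values were 0.829 and 0.943, and 0% of miRNAs were called (0 by DESeq2, 20 with an unadjusted p below 0.05). From day 20 to day 56, the log2 fold changes were -1.12 (SE 1.10) for miR-375 and 1.26 (SE 1.59) for miR-184, with edgeR adjusted p-values of 0.591 and 0.676. Here 16.3% of the tested miRNAs were called and neither member was. From day 11 to day 56, the log2 fold changes were -0.33 (SE 0.83) and 1.06 (SE 1.58), with edgeR adjusted p-values of 0.799 and 0.690. In this comparison 26.8% of the tested miRNAs were called, again without the 2 members.

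The median log2 fold change of all tested miRNAs was itself 0.40 from day 11 to day 56 with upper-quartile scaling and 2.27 with scaling by total counts. At day 20, the median of topsoil over control was -0.24 and -1.03 with these scalings. The sign of miR-375 from day 11 to day 56 turned with the scaling by total counts (1.24), and so did that of miR-184 from day 11 to day 20 (0.33). These directions are therefore not given as changes.

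miR-122-5p, the liver miRNA, was found once. Topsoil replicate 2 at day 56 had 21 counts, or 6.46 CPM (95% interval 4.00 to 9.87). Control replicate 7 at day 11 had 2 counts and topsoil replicate 5 at day 56 had 1. The other arm, miR-122-3p, had none. At day 56, the pooled topsoil level of 1.14 CPM was 11.9 times the limit of 0.0957 CPM that 0 counts over the 8 control libraries allow. That ratio rests on 1 library, leaves out the counting error of its reads and is not a lower bound. The same library had 0 counts of miR-375 and 1 of miR-184. It also had 8 counts of miR-499-5p, a muscle miRNA, the highest in the series. The other muscle miRNAs looked at (miR-1, miR-133a, miR-133b, miR-206 and miR-499-3p) were at 0 in this library.

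Of the muscle miRNAs in the set, miR-1, miR-133a and miR-206, only miR-133a-3p had reads. It had 9 counts in control replicate 4 and 8 in control replicate 5 at day 56, or 1.49 and 3.16 CPM. Control replicate 5 also had 2 counts at day 11, and topsoil replicate 1 had 1 at day 56. All day 20 libraries were at 0. miR-1, whose gene neighbours MIR133A-1, was at 0 in the libraries where miR-133a-3p was found, and so were miR-206 and miR-133b.

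Of the epithelial miRNAs other than miR-184, miR-141 had 20 counts in all, as many as miR-133a-3p. miR-141 was above 3 counts in 3 libraries, with 5 counts in control replicate 8 at day 20, 4 in topsoil replicate 3 and 4 in topsoil replicate 5, both at day 56. The 6 other libraries with a miR-141 read held 1 or 2 counts each. miR-205 had 1 count at day 11 and 3 at day 20, both in control replicate 1. miR-200b had 1 count, in control replicate 4 at day 11, and miR-429, its cluster partner, had 0 in all libraries. miR-200a had no entry in the table. The 5 members with reads but too few for the filter were fitted only without it, over 317 miRNAs. None of them was called in any comparison of treatments or ages by edgeR. With 1 to 24 counts each over the series, they had too few reads for a missing call to show that a difference was absent.

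miR-375 and miR-184 shared 4 libraries, which are 36.4% of the 11 with miR-375 and 30.8% of the 13 with miR-184. Over all 39 libraries, miR-184 was found in 33.3% and miR-375 in 28.2%, close to these shares. These were control replicate 4 at day 11, and control replicate 3, topsoil replicate 1 and topsoil replicate 5 at day 56. miR-141 and miR-184 shared 2 libraries, and each other pair shared at most 1. Over the 39 libraries, the Spearman correlation of miR-375 with miR-184 was 0.18 relative to the whole library and 0.07 in CPM without miR-486.

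The miRNAs most like miR-375 over the 39 libraries, of 207 compared by their counts relative to the whole library, were miR-7137-5p (Spearman 0.61), miR-127 (0.48) and miR-296-5p (0.47), and the least like it was miR-486 (-0.28). In CPM without miR-486, these were 0.57, 0.41, 0.42 and -0.10. Those most like miR-184 were miR-30c-5p (0.77), let-7f-3p (0.74) and miR-30b-5p (0.73), and the least like it was miR-486 (-0.67). Without miR-486 in the total, the first 3 were 0.26, 0.56 and 0.40 and miR-486 was -0.56. The points of these correlations share library depth and the share of miR-486.

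Other miRNAs known from solid tissues were not all rare in these PBMCs. A list of 26 further stems from brain, gut, muscle, gonad, pancreas and other tissues matched 36 mature names of 23 stems. Of these 36, 5 were above 3 counts in all 39 libraries (3 entries of miR-9 with identical counts, miR-128 and miR-192), and 14 had 0 counts throughout. Above 3 counts in 5 to 38 libraries were miR-196b-5p (27), miR-7-5p (23), miR-7-3p (21), miR-215 (14), miR-194a-5p (10) and miR-204 (9). In the rest of the list, 9 were found in 1 to 4 libraries and 16 in none, counting those at 0.

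Other listed miRNAs were read in the 2 libraries with the most miR-375. In topsoil replicate 3 at day 20, miR-7-5p, a miRNA of islet and neuroendocrine cells, had 0 counts, as had miR-204, miR-216, miR-217, miR-499-3p and miR-499-5p. Topsoil replicate 5 at day 20 had 35 counts of miR-7-5p and 15 of miR-499-3p, the latter of only 16 in the series, while miR-204, miR-216, miR-217 and miR-499-5p were at 0. The gut and liver miRNA miR-192 had 1177 and 1672 counts in these libraries and miR-9, a miRNA of the brain, had 69 and 248. Both were read in all 39 libraries, from 373 to 5876 counts for miR-192 and from 5 to 1053 for miR-9. Also of the list, miR-194a-5p and miR-194b-5p had 0 counts in both libraries. miR-215 had 1 count in replicate 3 and 0 in replicate 5.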

How the data were processed

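The authors deposited miRDeep2 counts per mature miRNA and precursor for 39 small RNA libraries, aligned to Sscrofa11.1 and not normalized. The submitters' notes name FastQC 0.11.3 and Trim Galore 0.4.5. The version of miRDeep2 is not given in the sources used here. The mRNA counts were not used here. Of 479 entries, 1 per mature name (the largest total) was kept, which gave 457, and 317 had a read. The members and lists were chosen with earlier results of these data known.

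Counts were fitted with edgeR 4.0.16 (R 4.3.3) and upper-quartile (75%) scaling, over 209 miRNAs that averaged over 2 counts and had 1 or more in 17 or more libraries. Treatments were compared at each age alone. Age and interaction used pig as a block, age and RQI. Standard errors are the log2 fold change over the square root of F. Permutation and interval methods used scipy 1.17.1 in Python 3.11.15. The fits were tested on simulated data. A pig was sampled at every age, so the pairing comes from the animal. Deviations of libraries of the same pig had a mean correlation of 0.0554 over 39 pairs, against -0.00298 between pigs (228 pairs). Alternatives were TMM, scaling by total counts, DESeq2 1.42.0, no filter, every entry, RQI added or left out, no block, the sample characteristics, other detection limits and each pig left out. All members, their cluster partners and blood-cell miRNAs were named, as were the miRNAs of a list of other tissue-restricted miRNAs with more than 3 counts in at least 5 libraries. The 3 most similar miRNAs were named for miR-375 and miR-184. miR-345-5p, miR-574-3p, miR-194b-5p, miR-216, miR-217, miR-499-3p and miR-499-5p were named after their values were seen.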

Additional observations from a re-analysis of the deposited data

Results flagged for a closer look

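In 16 of the 24 groups of one member, treatment and age that had any read, 1 library stood far from the rest (the gap test of Dixon at 95%). Chance would flag about 1 in 20 groups, or 1.2 of 24, but the members were chosen for reads in scattered libraries, so this number is a description and no test. A count of 0 in most libraries makes such gaps common, and 8 of the 16 rest on 3 or fewer counts. Values are in CPM, counts per 1000000 counts of all miRNAs except miR-486. For miR-375 the libraries were control replicate 4 at day 11 (5.56), control replicate 5 at day 20 (4.86) and control replicate 3 at day 56 (5.70). The day 20 topsoil group of miR-375 was not among them, since 2 of its libraries were high. For miR-184 they were control replicate 6 at day 11 (14.4) and topsoil replicate 2 at day 20 (7.54). For miR-122-5p, topsoil replicate 2 at day 56 (6.46) and control replicate 7 at day 11 (2.03) stood apart. The miR-133a-3p values were 1.18 in control replicate 5 at day 11, 3.16 in the same pig at day 56 and 0.216 in topsoil replicate 1 at day 56. For miR-141 the values were 1.81 in control replicate 8 at day 20, 0.464 in control replicate 4 at day 11 and 0.669 in topsoil replicate 2 at day 11. For miR-200b the value was 0.464 in control replicate 4 at day 11. For miR-205 the values were 1.02 at day 11 and 0.913 at day 20, both in control replicate 1. Control replicate 4 at day 11 was therefore the library that stood apart for 3 members, miR-375, miR-141 and miR-200b, with 1 count each of the last 2.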

How the results depend on the processing

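The 30 pairs of member and library with more than 3 counts became 62 with at least 1 count and 15 with more than 10 counts, and stayed near 30 with over 1 CPM (35) or all entries summed (30). At day 20, 1 member was called. With the sample characteristics as groups, 0 were called. With 1 pig left out the number was 0 to 1, and it was 0 without topsoil replicate 3. The log2 fold change of miR-375 at day 20 lay between 5.85 and 8.31 over the pigs left out (edgeR adjusted p 0.000331 to 0.105), and it reversed to -2.05 with the sample characteristics. The exact permutation test, on the difference in mean log2(CPM + 1), gave 2.87 without a call (p = 0.179). Over all miRNAs, the 1 call at day 20 became 3 with DESeq2 and 2 with no filter or with RQI added. The 34 calls from day 20 to day 56 became 93 with scaling by total counts and 54 with DESeq2, and the 56 from day 11 to day 56 became 157 with scaling by total counts. In the other comparisons, 0 members were called under every alternative run, and without the replicate block (the pairing by pig) the number was also 0 in each age and interaction fit.

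Some fold changes that had passed no test also reversed. With the sample characteristics, miR-375 was -0.55 at day 11, and miR-184 was -0.95 at day 20 and -1.18 at day 56. With scaling by total counts, miR-184 from day 11 to day 20 was 0.33 and miR-375 from day 11 to day 56 was 1.24. With 1 pig left out, miR-184 ranged from -3.50 to 1.51 at day 20 (the lowest without topsoil replicate 2, where no topsoil read remained) and from -0.090 to 1.01 at day 56 (topsoil replicate 1). From day 11 to day 20 it ranged from -1.07 to 0.67 (reversed without control replicate 4, 5 or 6). miR-375 ranged from -0.018 to 1.28 from day 11 to day 20 (topsoil replicate 5) and from -1.30 to 0.0046 from day 11 to day 56 (control replicate 4). The cause of these shifts was not tested. Members with 1 to 24 counts fell below the filter and were fitted only without it. The 4 members at 0 counts were not fitted.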
